A study of Mus musculus with 3 samples.

Results

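Border associated macrophages are the macrophages that live at the edges of the brain, in the meninges, around blood vessels and in the choroid plexus. They take up material from blood and cerebrospinal fluid through scavenger and lectin receptors, and some of them present antigen on MHC class II. They share many genes with microglia, the macrophages of the brain tissue itself, from which they are told apart by receptors such as the mannose receptor Mrc1 and by a lack of P2ry12, Tmem119 and Sall1.

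Barcodes were chosen as border associated macrophages from 3 single-cell RNA libraries by their counts of unique molecular identifiers (UMIs). A barcode was chosen when Mrc1, Ms4a7, Cd163, Lyve1 and Cbr2 together had at least 5 UMIs and the monocyte genes Plac8, Ly6c2 and Chil3 together had fewer than 5, among barcodes with more than 200 and at most 8000 genes and at most 10% mitochondrial UMIs. This gave 195 of 17669 barcodes within these limits, or 1.10%, out of 18340 in all. They were set beside 12805 other barcodes within the limits that had at least 2000 UMIs, called other cells here. Because the 5 marker genes chose the barcodes, every difference between them and other cells is a description and was given no test.

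The study asked how the 2 splice isoforms of human CD33, a sialic acid receptor linked to Alzheimer's disease risk, act in mouse microglia. The libraries came from brain of C57BL/6 mice of 8 weeks, labelled Wild type (control), hCD33M and hCD33m, with 1 library per genotype. In the hCD33M and hCD33m mice a human CD33 transgene with green fluorescent protein stood behind a floxed stop in the Rosa26 locus and was switched on by Cx3cr1-Cre, which acts in border macrophages and monocytes as well as microglia, and the hCD33m line came from 1 embryonic stem cell clone. Per the study, each library pooled 2 male mice, brains were kept cold with inhibitors of transcription and translation, and CD11b+ CD45low Cx3cr1+ cells were sorted before 10x Chromium 3′ libraries were made, a gate that can leave out border macrophages with more CD45. Whether the control mice carried Cx3cr1-Cre is not given for these samples, and human CD33 transcripts are not analysed here. The hCD33m library is labelled female, but its chosen barcodes had 0 UMIs of Xist and 117 of the Y-linked gene Ddx3y. That was 93.6 of each 1000000 UMIs, against 82.2 in control (54 UMIs) and 108 in hCD33M (82 UMIs). Eif2s3y, Kdm5d and Uty, also Y-linked, were found in the chosen barcodes of each library. With 1 pooled library per genotype, the spread between mice was not measured, so no p-value is given and intervals at 95% cover counting error only.

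The libraries held 32272657 UMIs in control, 36413491 in hCD33M and 40629705 in hCD33m. The control library gave 54 chosen barcodes of 5891, or 0.917% (exact Clopper-Pearson interval 0.689 to 1.19). The hCD33M library gave 46 of 5710, or 0.806% (0.590 to 1.07). The hCD33m library gave 95 of 6068, or 1.57% (1.27 to 1.91), the highest of the 3, with an interval that did not overlap those of the other libraries. These shares count barcodes of any depth. Among barcodes with at least 2000 UMIs, each cut at random to 2000 and chosen by at least 3 marker UMIs, the shares lay closer together. They were 0.875% in control, 0.765% in hCD33M and 1.11% in hCD33m. With 1 library each, a difference of genotype and a difference of dissection or sort cannot be told apart. Of barcodes that met the marker limit, 3 were left out for monocyte UMIs. Between 4 and 12 barcode sequences were shared by any pair of libraries, and none of the chosen barcodes was among them.

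At the limit of the rule, 23 barcodes had 4 marker UMIs and stayed out, and 17.4% of them had a UMI of Pf4, the platelet factor chemokine of border macrophages that the rule did not use. Just inside, 22 barcodes had 5 marker UMIs and 40.9% had Pf4. Of 95 barcodes with 20 or more marker UMIs, 96.8% had Pf4, against 0.365% of 16706 barcodes with none. The choice was thus sharp at high marker counts and less so near the limit. Of the 195 barcodes, 48 had all 5 markers, 36 had 4, 30 had 3, 54 had 2 and 27 had only 1. Pf4 was found in each barcode with 4 or 5 of the markers, in 96.7% of those with 3, in 70.4% of those with 2 and in 25.9% of those with 1.

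The chosen barcodes held a median of 10026 UMIs (range 1242 to 56093) and 3416 genes, against 5370 UMIs and 2321 genes in other cells. By library the medians were 8592 UMIs in control, 11711 in hCD33M and 9594 in hCD33m. The label was checked against microglial genes by adding P2ry12, Tmem119, Siglech and Sall1 in each barcode. These genes made up a median of 7630 of each 1000000 UMIs (7630 CPM) in other cells. In 104 of the 195 chosen barcodes they reached at least 4000 CPM, with a median of 5805. These 104 had a median of 16930 UMIs, 14.5 marker UMIs and 5 Pf4 UMIs. In 67 barcodes the microglial genes stayed under 2000 CPM, with a median of 528. These 67, called microglial-poor, had a median of 4366 UMIs, 22 marker UMIs and 18 Pf4 UMIs. The other 24 lay between. So 104 of the 195 barcodes carried microglial transcripts at a high level together with border macrophage markers, which goes against the label for them, and they were also the barcodes with the most RNA. Whether they held RNA of more than 1 cell was not tested.

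**Figure D1:**
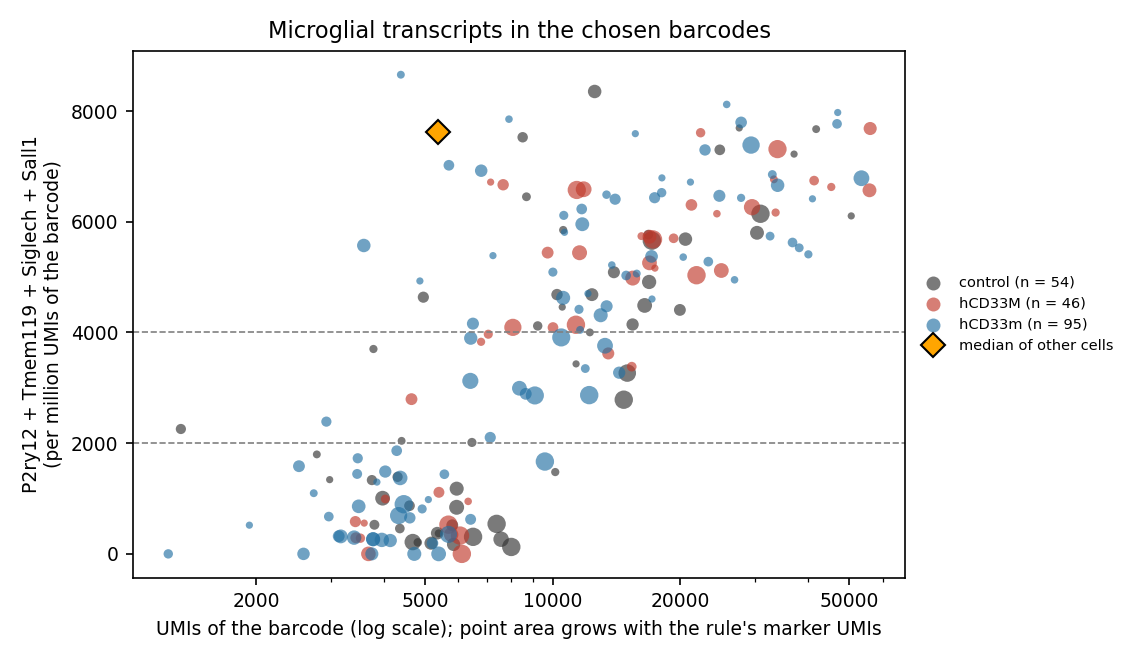
Microglial transcripts (P2ry12, Tmem119, Siglech and Sall1, CPM of the barcode) against the UMIs of the barcode on a log scale for the 195 chosen barcodes, coloured by library, with point area growing with the rule's marker UMIs and dashed lines at 2000 and 4000 CPM. The 67 barcodes under the lower line sit at low UMI totals (median 4366), while the 104 above the upper line reach 56093 UMIs and have a median of 5805 CPM, below that of other cells (7630 CPM).

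Microglial-poor barcodes numbered 22 of 54 in control (40.7%, interval 27.6 to 55.0), 12 of 46 in hCD33M (26.1%, 14.3 to 41.1) and 33 of 95 in hCD33m (34.7%, 25.3 to 45.2), and these intervals overlapped. As a share of all barcodes within the limits they were 0.374% (0.234 to 0.565), 0.210% (0.109 to 0.367) and 0.544% (0.375 to 0.763), and the intervals of control and hCD33m overlapped. The order of the libraries was the same as for all chosen barcodes. Values below are for all 195 barcodes unless the 67 microglial-poor ones are named. Of the 2663210 UMIs summed over the 195, the 104 barcodes with at least 4000 CPM of microglial genes held 2135230. The 67 microglial-poor ones held 312243, so values over all 195 come mostly from barcodes high in microglial transcripts. Levels are UMIs summed over barcodes and scaled as above (CPM), and ratios are on the log2 scale.

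Border markers came first. Mrc1, the mannose receptor that takes up glycoproteins (chromosome 2: 14229392 to 14332057, plus strand, GRCm38), stood at 1189 CPM in the control library (interval 1107 to 1276), 1030 CPM in hCD33M barcodes (958.5 to 1104) and 890 CPM in hCD33m barcodes (838 to 944), against 8.83 in other cells. In microglial-poor barcodes it stood at 2578, 3085 and 3343 CPM, so the order of the libraries was turned and the level was higher in each. Ms4a7, a membrane protein of the Ms4a family (chromosome 19: 11321039 to 11336146, minus strand), stood at 585 CPM in control, 349 in hCD33M and 398 in hCD33m, and at 1318, 1385 and 1212 CPM in microglial-poor barcodes, against 0.622 in other cells.

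Cd163, the receptor that clears haemoglobin bound to haptoglobin (chromosome 6: 124304656 to 124330527, plus strand), stood at 181 CPM in control, 122 in hCD33M and 126 in hCD33m, against 0.0948 in other cells. Cbr2, a carbonyl reductase (chromosome 11: 120729489 to 120732114, minus strand), stood at 151, 134 and 127 CPM, against 0.274. Lyve1, a hyaluronan receptor known from lymphatic endothelium and perivascular macrophages (chromosome 7: 110850607 to 110863239, minus strand), stood at 168 CPM in control, 139 in hCD33M and 91.2 in hCD33m. In other cells Lyve1 had 2 UMIs in all against 329 in chosen barcodes, a ratio of 5864-fold with a counting interval of 10.65 to 15.57 on the log2 scale. In microglial-poor barcodes of control, hCD33M and hCD33m, Cd163 stood at 588, 456 and 617 CPM, Cbr2 at 512, 806 and 625 and Lyve1 at 344, 526 and 544. The 5 markers were thus highest in control over all chosen barcodes, and none of them was highest in control among microglial-poor ones. Lyve1 was uneven among cells, since 1 control barcode held 32.7% of that library's 110 Lyve1 UMIs.

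Pf4, which the rule did not use (chromosome 5: 90772435 to 90773383, plus strand), stood at 1138 CPM in control, 949 in hCD33M and 974 in hCD33m, against 1.34 in other cells. In microglial-poor barcodes it stood at 3518, 4768 and 4570 CPM. Since depth differs between the classes, each barcode was also thinned to 2000 UMIs, which left 192 chosen barcodes and all 12805 other cells. After thinning, Pf4 was found in 61.5% of chosen barcodes and 0.219% of other cells, and before it in 81.0% and 0.570%, at medians of 10026 and 5370 UMIs. Mrc1 was found in 66.2% and 1.60% after thinning (95.9% and 4.59% before). Lyve1 was found in 20.8% and 0.0156% (31.8% and 0.0156% before). Of 65 microglial-poor barcodes that could be thinned, 58 had Pf4, 59 had Mrc1 and 23 had Lyve1. Pf4, which lies outside the rule, was thus in far more chosen barcodes than other cells at equal depth. For Mrc1 and Lyve1 the rule itself set the difference, and Lyve1 was missing from most chosen barcodes.

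**Figure D2:**
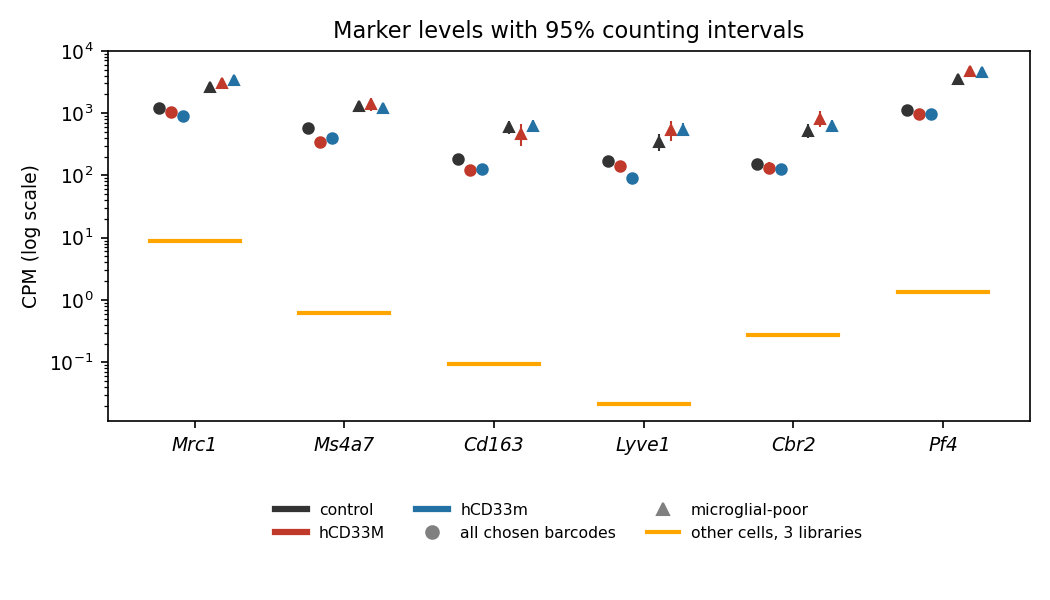
Levels of the 5 rule markers and Pf4 in CPM on a log scale, by library, for all chosen barcodes (circles) and microglial-poor barcodes (triangles), with exact 95% Poisson intervals, and for other cells of the 3 libraries together (orange bars). Pf4 lies between 949 and 1138 CPM in chosen barcodes, between 3518 and 4768 in microglial-poor ones, and at 1.34 in other cells.

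The promoters of 4 of these markers are shown. Mrc1, Cbr2 and Cd163 had chosen the barcodes, so their presence in the same barcodes was set in part by the rule, while Pf4 lies outside it. Each run is the 150 bases before the RefSeq start site on GRCm38.p6, read on the gene's own strand, and capitals mark matches of GAGGAA or its reverse complement, the core bound by the macrophage factor PU.1.
Mrc1, chr2:14229264-14229413, plus strand: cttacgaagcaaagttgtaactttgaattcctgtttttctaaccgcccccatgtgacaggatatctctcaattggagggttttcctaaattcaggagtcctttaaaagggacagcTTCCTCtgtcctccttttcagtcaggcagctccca
Pf4, chr5:90772285-90772434, plus strand: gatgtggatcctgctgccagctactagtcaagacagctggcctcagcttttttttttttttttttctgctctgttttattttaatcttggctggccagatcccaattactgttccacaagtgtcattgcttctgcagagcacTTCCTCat
Cbr2, chr11:120732022-120732171, minus strand: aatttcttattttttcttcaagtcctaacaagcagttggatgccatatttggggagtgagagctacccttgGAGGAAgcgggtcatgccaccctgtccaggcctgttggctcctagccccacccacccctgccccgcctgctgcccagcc
Cd163, chr6:124304501-124304650, plus strand: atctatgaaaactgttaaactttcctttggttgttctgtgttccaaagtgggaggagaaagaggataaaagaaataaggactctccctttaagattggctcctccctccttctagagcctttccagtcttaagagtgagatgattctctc
Mrc1, Pf4 and Cbr2 each had 1 match and Cd163 had none, nor had either of 2 promoters of Ms4a7, which are not shown. The gene spans of Mrc1 and Cbr2 given above do not begin at these start sites and overlap the runs. By that span the match of Cbr2 lies inside the gene. Of 32851 RefSeq promoters of this length, 14.5% had such a match on either strand. The letters TGCTGA, a Maf recognition core, were searched on both strands too, were in none of these promoters and were in 10.1% of all promoters.

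Across genes, 6925 had at least 20 CPM in chosen barcodes or other cells. A gene was counted as higher or lower when its ratio was at least 2-fold and its counting interval left out no difference. By this rule 150 genes, or 2.17%, were higher in the chosen barcodes and 8, or 0.116%, were lower. Of the 150, 148 were higher in each of the 3 libraries and 121 were at least 2-fold higher in each. In microglial-poor barcodes 7210 genes were measured, of which 542, or 7.52%, were higher and 1081, or 15%, were lower. Of the 150 genes, 149 were also counted as higher there. Without the hCD33M library 13 genes were lower in place of 8, and without the hCD33m library 17. The median ratio over all genes measured was -0.05 in all chosen barcodes and -0.27 in microglial-poor ones.

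Of the 28 other known border macrophage markers in the list, 22 could be measured, and 16 were higher and none lower, with a median ratio of 3.25. In microglial-poor barcodes 27 were measured, 23 were higher and the median was 5.79. F13a1, a coagulation factor subunit made by macrophages, stood at 369 CPM in control, 262 in hCD33M and 214 in hCD33m and at 4.34 in other cells. Folr2, a folate receptor, stood at 97.5, 50.2 and 60.8 CPM in these libraries, against 0.611. Both were highest in control over all chosen barcodes. In microglial-poor ones F13a1 was lowest in control, at 907 CPM against 947 in hCD33M and 977 in hCD33m, and Folr2 was highest there, at 294 against 175 and 228 CPM. Cd38, an enzyme that degrades NAD, had 108 UMIs in chosen barcodes and 3 in other cells, a ratio of 1283-fold with an interval of 8.74 to 12.63 on the log2 scale. Colec12, a scavenger receptor with a collectin domain, had 72 UMIs and none in other cells. Set against a floor of 3 UMIs over the group it was 856-fold higher, and its counting interval began at 9.405 on the log2 scale. Maf, a transcription factor of both macrophage types, was at 1769 and 1335 CPM, and Ltc4s, a leukotriene synthase, at 708 and 755, so these known markers were not counted.

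Scavenger and endocytic receptors bind modified lipoproteins, sugars and debris. Of 12 measured, 8 were higher and none lower, with a median ratio of 2.71. Cd36, a receptor for oxidised lipoproteins, stood at 54.8 CPM in control, 44.9 in hCD33M and 64.0 in hCD33m, against 0.600 in other cells (ratio 6.55, interval 6.10 to 7.02). Dab2, an adaptor of clathrin uptake, stood at 603, 517 and 415 CPM, against 13.2 (5.22, 5.11 to 5.33). Msr1, a scavenger receptor, was at 31.9 CPM against 2.11. Stab1, which takes up modified proteins and was also present in other cells, stood at 688 against 243 CPM (1.5). Levels of these receptors differed among libraries far less than from other cells. Cd68, a lysosomal glycoprotein of all macrophages, was at 666 and 663 CPM and did not stand out.

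Lectins bind sugars, and the 4 given here were named for their high ratios. Clec10a, a galactose lectin, stood at 104 CPM in control, 127 in hCD33M and 77.6 in hCD33m and at 0.432 in other cells (7.83, 7.35 to 8.34). Its neighbour and relative Mgl2 stood at 174, 148 and 100 CPM, against 1.03. Cd209f, of the DC-SIGN family, stood at 47.2, 87.2 and 79.2 CPM, against 0.116. Clec4n, a lectin for fungal sugars, stood at 39.8 CPM against 0.179. Clec10a and Mgl2 are close copies, as are members of the Cd209 family, so reads may have been split between them. In microglial-poor barcodes the ratios were 9.74 for Clec10a, 8.99 for Mgl2, 11.88 for Cd209f and 9.68 for Clec4n, each higher than in all chosen barcodes.

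Of 13 engulfment and bridging genes measured, 3 were higher and none lower. They were Axl, a receptor kinase for dying cells (57.1 against 7.67 CPM), its ligand Gas6 (281 against 113) and Cd93 (56.3 against 0.737). Mertk, the related kinase of microglia, was at 398 and 515 CPM, and in microglial-poor barcodes at 154 (ratio -1.74). There it was counted as lower with 5 other genes of the 14 measured, against 15% of all genes. So Axl and Mertk, which share the ligand Gas6, differed from other cells in opposite directions in microglial-poor barcodes. Of 10 complement genes, C4b (95.8 against 2.23 CPM) and Cfp, properdin (25.5 against 1.60), were higher. C1qa, a subunit of the first component, was at 9700 and 10159 CPM in chosen barcodes and other cells and at 9435 in microglial-poor barcodes.

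Of 9 MHC class II genes measured, 4 were higher, namely H2-Aa, H2-Ab1, H2-Eb1 and Cd74, which form the antigen groove and its chaperone, the invariant chain. H2-Aa (chromosome 17: 34282744 to 34287823, minus strand) stood at 2231 CPM in control, 757 in hCD33M and 1566 in hCD33m, against 42.1 in other cells (5.16, interval 5.09 to 5.22). Cd74 stood at 4561, 1458 and 3568 CPM, against 126. Both were lowest in hCD33M. H2-DMa, which helps load peptides, was at 335 and 276 CPM and was not counted. None of 10 class I genes was counted in all chosen barcodes, and 4 of 11 were higher in microglial-poor ones, among them H2-K1 at 1332 against 503 CPM.

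Of 11 chemokines measured, 5 were higher in chosen barcodes and none lower. Besides Pf4 they were Ccl8, Ccl7 and Ccl2, which draw monocytes, and Ccl24, which draws eosinophils. Ccl8 (chromosome 11: 82115185 to 82116799, plus strand) stood at 45.7 CPM in control, 22.5 in hCD33M and 92.0 in hCD33m, with 162 UMIs in all and 2 in other cells (interval 9.62 to 14.55 on the log2 scale). Ccl7 stood at 25.9, 22.5 and 48.8 CPM, against 1.34. Ccl24 stood at 35.0, 60.8 and 56.8 CPM, against 9.92. Ccl8 and Ccl7 were highest in hCD33m and Ccl24 lowest in control. Ccl3 and Ccl4, chemokines that microglia also make, were at 69.8 against 55.6 CPM and 48.8 against 61.0 CPM. A growth factor, Igf1, stood at 132.5, 80.6 and 58.4 CPM, against 1.02 (6.34, 5.99 to 6.70). Of 17 cytokine and chemokine receptors, Ccr1 (90.9 against 16.2 CPM) and Ccr2 (57.1 against 23.3) were higher. The Ccr2 ratio, 1.29, turned to -0.40 when at least 3 of the 5 markers were required.

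Apoe, the main lipid carrier of the brain (chromosome 7: 19696109 to 19699188, minus strand), had the highest level of any gene counted as higher. It stood at 26157 CPM in control, 14804 in hCD33M and 18352 in hCD33m, against 577 in other cells (5.06, interval 5.04 to 5.08). In microglial-poor barcodes it stood at 73071, 57040 and 54868 CPM, the highest in control again. Apoe was found in 96.4% of thinned chosen barcodes and 26.7% of thinned other cells (97.9% and 44.4% before thinning). Of 10 lipid genes, only Apoe and Cd36 were counted. Of 10 iron and heme genes, 4 were higher, namely Cd163, Cp (ceruloplasmin, 93.9 against 1.76 CPM), Blvrb (biliverdin reductase, 170 against 68.6) and Hmox1 (heme oxygenase, 51.8 against 25.4). The ferritin chains Fth1 and Ftl1 joined them in microglial-poor barcodes, at 6165 against 2175 CPM and 4987 against 1401 CPM.

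Of 11 interferon-stimulated genes measured, 7 were higher and none lower, with a median ratio of 1.41. Bst2 (tetherin, which holds budding virus at the membrane) stood at 458 against 172 CPM, Ifitm3 at 243 against 58.9 and Ifi207 at 89.4 against 5.19. In microglial-poor barcodes 11 of 13 were higher and the median was 2.10. Of 5 Ms4a genes, Ms4a7, Ms4a6c (285 against 79.5 CPM) and Ms4a14 (54 against 3 UMIs, interval 7.70 to 11.65 on the log2 scale) were higher, and all 6 measured in microglial-poor barcodes were. Adhesion genes Vcam1 (56.0 against 8.87 CPM) and Itga4 (40.9 against 5.24), which bind each other, were both higher, with Sdc4, among 15 measured. None of 12 Toll-like receptor genes, 13 cathepsin and cystatin genes and 7 heat shock genes was counted in all chosen barcodes.

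**Figure D3:**
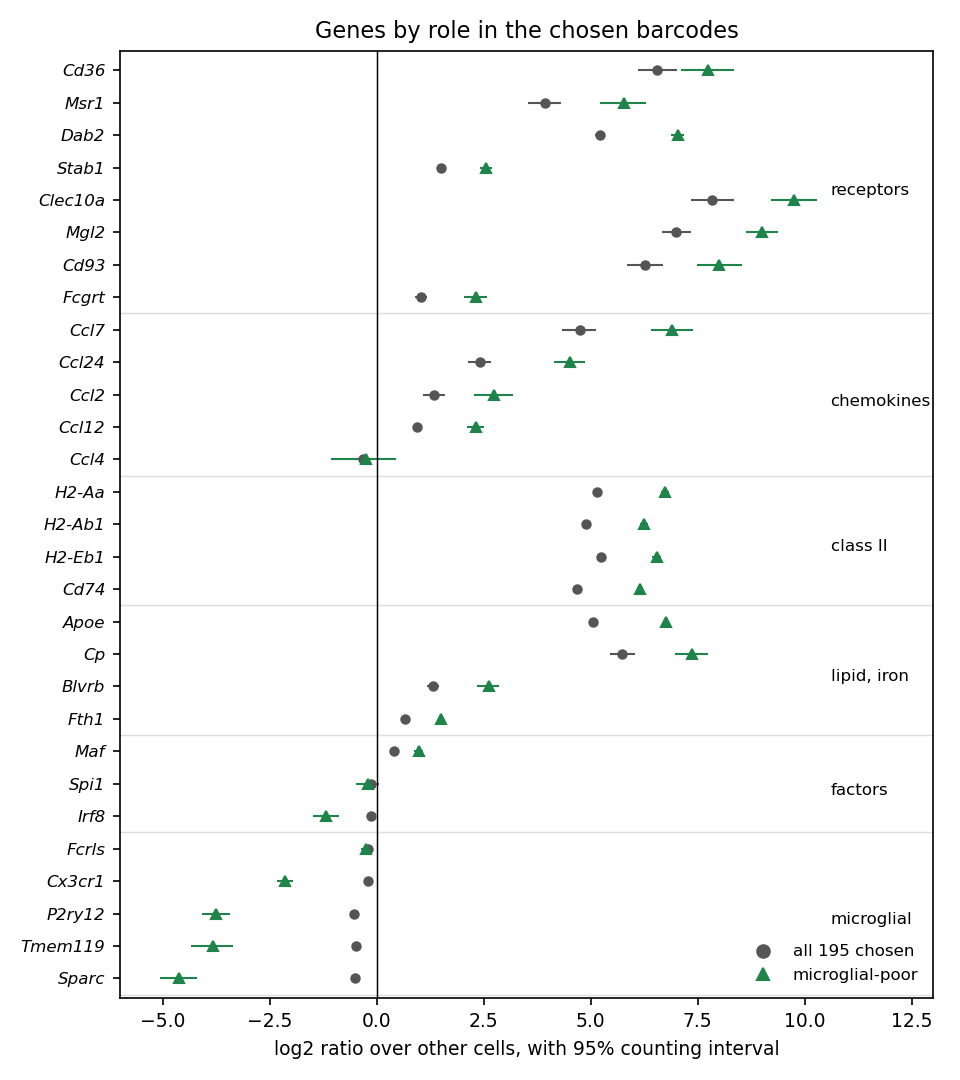
Ratios of chosen barcodes over other cells on the log2 scale for genes grouped by role, for all 195 chosen barcodes (circles) and microglial-poor barcodes (triangles), with exact 95% counting intervals. Receptors, class II genes and Apoe lie to the right in both, Ccl4 and Spi1 lie near 0 in both, and microglial genes such as P2ry12 lie near -0.54 in all chosen barcodes and -3.75 in microglial-poor ones.

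Among 22 genes of microglial identity, none was counted in all chosen barcodes (median ratio -0.49), and 21 were counted as lower in microglial-poor barcodes (median -2.88). Of these, P2ry12, Tmem119, Siglech and Sall1 defined the microglial-poor barcodes and the others were not used for it. Sparc, a matrix protein, was at 3684 CPM in other cells and at 176 CPM in control, 210 in hCD33M and 103 in hCD33m microglial-poor barcodes (-4.61, interval -5.06 to -4.20). Cx3cr1, the fractalkine receptor used in the sort and to drive Cre, was at 3673 CPM in other cells and at 1008, 579 and 786 CPM (-2.14). Fcrls, an Fc receptor-like protein, was the 1 gene of the list not counted, at 1921 and 1617 CPM.

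Of 17 transcription factors measured, none was counted in all chosen barcodes. In microglial-poor barcodes 3 of 20 were higher and 8 lower, against 7.52% and 15% of all genes measured there. Spi1, which encodes PU.1, was at 397 CPM in microglial-poor barcodes and 459 in other cells (-0.21, interval -0.47 to 0.05). Maf was at 2633 and 1335 CPM (0.98) and was not counted. Irf8, a factor of microglia and monocytes, was at 295 and 666 CPM (-1.18). Spic, a factor of iron-recycling macrophages, was at 25.6 and 0.0948 CPM (8.08, 6.50 to 9.62). The interval for Spi1 held no difference, and those for Irf8 and Spic left it out. Of 10 genes of Siglecs and sialic acid signalling, Cd22 was the 1 counted as higher, at 20.7 against 9.90 CPM. Mouse Cd33 stood at 448 CPM in control, 419 in hCD33M and 414 in hCD33m and at 483 in other cells. Siglec1, a sialoadhesin of tissue macrophages, was below the level limit in all chosen barcodes and was at 51.2 against 0.927 CPM in microglial-poor ones.

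Markers of other cells were checked in the same barcodes. Of the 3 monocyte genes, which the rule kept low in each chosen barcode, Plac8 was at 0.751 CPM and Ly6c2 and Chil3 at 0. Lyz2, lysozyme, which many macrophages make, was at 3488 against 614 CPM. As a neighbour to compare with, 64 barcodes with at least 5 monocyte UMIs and under 5 border marker UMIs had a median of 9704 UMIs. They had no UMI of Pf4, Cd163, Lyve1, Folr2 or Cd38, which allows up to 4.82 CPM of each. In these 64 barcodes low counts of Cd163 and Lyve1 were set by the choice, while Pf4, Folr2 and Cd38 were not used for it. Ccr2 was at 1381 CPM there and 99.3 in microglial-poor border barcodes, Lyz2 at 22944 and 10610, Maf at 323 and 2633 and Dab2 at 2.62 (2 UMIs) and 1720. F13a1 was present in both, at 447 and 945 CPM. Of 3 dendritic cell genes measured, Cd209a, a lectin that macrophages also make, was higher, with 93 UMIs in chosen barcodes and 94 in other cells, where they came from 14 barcodes. The list summed to 131 CPM in chosen barcodes, 314 in microglial-poor ones and 111 in other cells, and its members Flt3 and Xcr1 had 1 and 2 UMIs among chosen barcodes. Neutrophil markers summed to 213 CPM in chosen barcodes and 468 in other cells, where S100a8 and S100a9 came from 37 and 39 barcodes. Choroid plexus epithelium markers summed to 2.25 and 29.4 CPM. Of the 8 genes lower in all chosen barcodes, 5, namely S100a8, S100a9, Camp, Ngp and Hbb-bs, had their UMIs in at most 40 other cells.

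Microglial-poor barcodes differed among themselves in MHC class II. H2-Aa, H2-Ab1, H2-Eb1 and Cd74 together had no UMI in 27 of the 67, between 1 and 9 in 9, and 10 or more in 31, called class II high, where they ran from 11 to 563 with a median of 187. Depth was close, with a median of 4374 UMIs in class II high and 4325 in the others. Class II high barcodes were 12 of 22 in control (54.6%, interval 32.2 to 75.6), 4 of 12 in hCD33M (33.3%, 9.93 to 65.1) and 15 of 33 in hCD33m (45.5%, 28.1 to 63.7). The shares overlapped between libraries. Among other cells, 93 barcodes, or 0.726%, reached 10 class II UMIs.

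Lyve1 and class II were mostly found apart. Lyve1 was found in 7 of 31 class II high barcodes (22.6%) and in 22 of 36 others (61.1%), at 269 and 619 CPM. Cd163 and Cbr2 were each found in 48.4% and 75%. Cd209f was found in 6.45% and 36.1%, and its relative Cd209a in 3.23% and 36.1%. Clec4n, the fungal lectin, was found in 12.9% and 47.2%. These 6 genes were in a lower share of class II high barcodes, while Mgl2 was in 54.8% and 52.8%, at 719 and 372 CPM, and Dab2 in 90.3% and 86.1%, at 1315 and 2040 CPM. Ccr2, the receptor that brings monocytes into tissue, was in 7 of 31 and 1 of 36, and Axl in 51.6% and 22.2%, the other way round. Pf4 was found in 93.6% and 94.4% and Mrc1 in 93.6% and 97.2%, so most barcodes of both groups carried these markers. Their levels were lower in class II high barcodes, at 3406 against 4835 CPM for Pf4 and 2375 against 3500 for Mrc1. Ms4a7 (937 against 1558 CPM), Stab1 (748 against 1948), Folr2 (167 against 304) and Gas6 (508 against 733) were lower there too. Ccl8 (290.5 against 166 CPM) and Ccl7 (211 against 120) were at higher levels, as was Mgl2. Ccl8 had 40 against 29 UMIs and was found in 8 of 31 and 8 of 36 barcodes. Ccl7 had 29 against 21 UMIs and was found in 6 of 31 and 11 of 36, a lower share in class II high barcodes. Mrc1, Ms4a7, Cd163, Lyve1 and Cbr2 had also chosen the barcodes. Flt3, a dendritic cell gene, had 1 UMI in class II high barcodes and none in the others. The split was made on these barcodes, and the list compared was chosen with earlier results known, so the shares are a description.

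**Figure D4:**
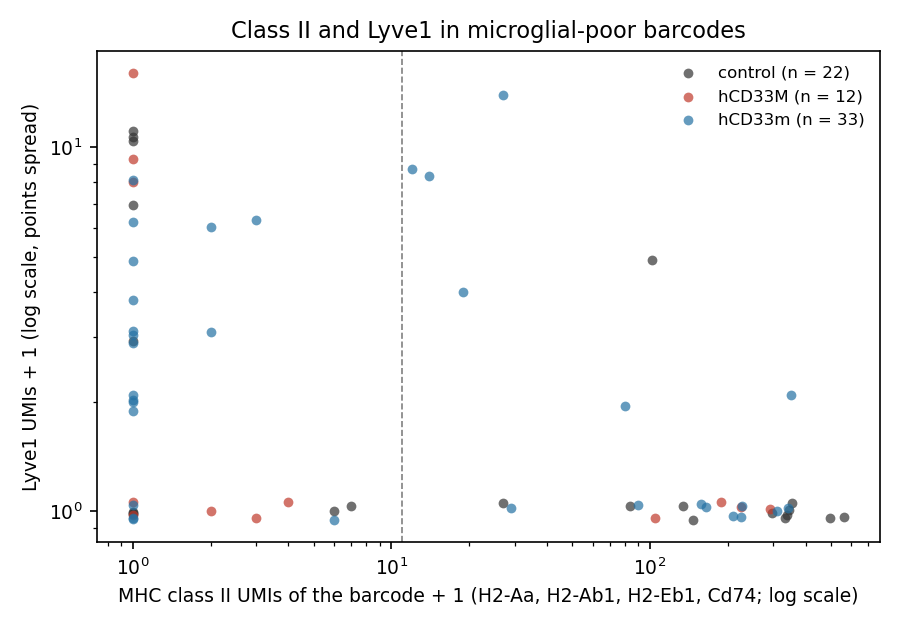
UMIs of MHC class II genes (H2-Aa, H2-Ab1, H2-Eb1 and Cd74) and of Lyve1, each plus 1 on a log scale, in the 67 microglial-poor barcodes, coloured by library, with points spread slightly along the Lyve1 axis and a dashed line at 10 class II UMIs. Of the 31 barcodes at or right of the line 7 have Lyve1, against 22 of the 36 to its left.

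Between genotypes, genes were compared over the chosen barcodes where either library had at least 50 CPM, and counted by the same 2-fold rule. With hCD33m set against control 3873 genes were measured, 33 (0.852%) were higher and 10 (0.258%) lower. For hCD33M against control 3978 were measured, 36 (0.905%) were higher and 25 (0.628%) lower. In hCD33m against hCD33M 3985 were measured, 15 (0.376%) were higher and 12 (0.301%) lower. None of the 5 rule markers was counted in any of the 3 comparisons. Every barcode was chosen by these genes and few of all genes were counted, so this does not show that the markers were alike. The first 2 comparisons share the control library and their counts are not independent. In microglial-poor barcodes alone, the genes counted in either direction were 210, 197 and 176 in the 3 comparisons, in place of 43, 61 and 27. Those barcodes held only 119104 UMIs in control, 57048 in hCD33M and 136091 in hCD33m, so the 50 CPM limit stood for few UMIs. The number of genes measured among them is not given, so these counts are not shares and cannot be compared as frequencies.

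Immediate early genes switch on within minutes of a stimulus. Of 18 measured in hCD33m against control, 13 were higher and none lower, with a median ratio of 1.22, against 0.03 over all genes. In other cells of the same libraries the median of these genes was 1.21, and in microglial-poor barcodes 1.37. With hCD33M set against control 5 of 18 were higher and 1, Ier3, was lower, with medians of 0.82 in chosen barcodes, 0.81 in other cells and 0.83 in microglial-poor barcodes. In hCD33m against hCD33M 3 of 17 were higher, with medians of 0.47, 0.43 and 0.47. The medians were thus close to those in the rest of each library, while single genes could differ. Fosb was at 2.20 in hCD33m against control in chosen barcodes (interval 1.70 to 2.73) and at 2.82 in other cells (2.73 to 2.91), and Dusp1 at 2.06 (1.41 to 2.77) and 2.71 (2.58 to 2.84). Cold handling with inhibitors was used for all 3 libraries, and a genotype effect and a difference in isolation cannot be told apart here.

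Fos, a subunit of the AP-1 factor (chromosome 12: 85473890 to 85477273, plus strand), stood at 132.5 CPM in the control library (interval 106 to 163), 254 CPM in hCD33M barcodes (219 to 292) and 626 CPM in hCD33m barcodes (583 to 672), lowest in control and highest in hCD33m. The ratio of hCD33m over control was 2.24 (1.92 to 2.58) in chosen barcodes, 3.19 in other cells (3.12 to 3.27) and 2.84 in microglial-poor ones. That of hCD33M over control was 0.94 (0.56 to 1.32) and 2.13 in other cells (2.05 to 2.21). A UMI of Fos was found in 33 of 54, 40 of 46 and 85 of 95 barcodes, and after thinning in 26.4%, 34.8% and 61.3%, against 9.77%, 31.4% and 47.8% of other cells, at a median of 5370 UMIs before thinning. In the control library Fos was thus found in more chosen barcodes than other cells. Jun, its partner, stood at 996, 1866 and 2340 CPM (1.23, 1.11 to 1.36). Klf2 and Klf4, factors that restrain inflammation, stood at 54.8, 136 and 288 CPM and at 19.8, 95.2 and 134 CPM. Egr1 stood at 132.5, 352 and 550 CPM. Each of these 5 genes was lowest in control and highest in hCD33m. Zfp36l1, an RNA-binding protein that destabilises transcripts, stood at 694.5, 1274 and 1033 CPM and was highest in hCD33M. Ier3 was highest in control, at 50.3, 15.9 and 46.4 CPM, where 1 barcode held 60.6% of the control UMIs and the hCD33M ratio was 2.38 in microglial-poor barcodes.

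**Figure D5:**
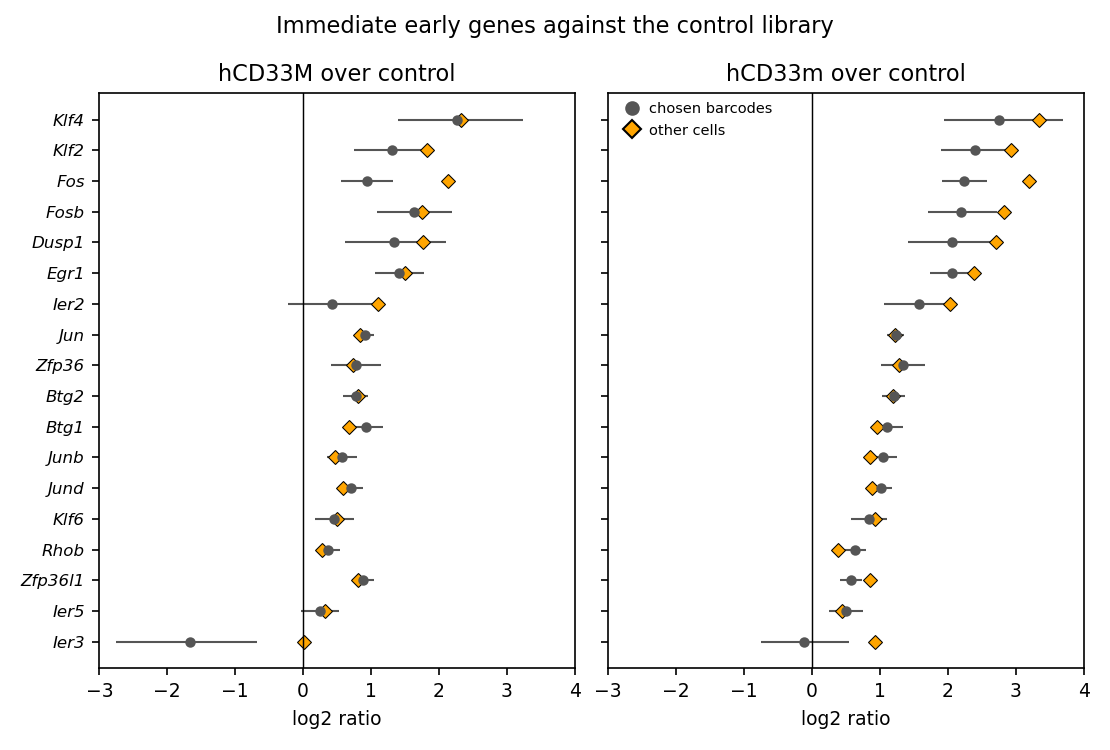
Ratios of hCD33M over control and hCD33m over control on the log2 scale for 18 immediate early genes, in chosen barcodes (circles, with exact 95% counting intervals) and in other cells (diamonds). Most points lie right of 0 in both panels, with medians of 0.82 and 1.22 in chosen barcodes and 0.81 and 1.21 in other cells, and Ier3 in hCD33M lies at -1.66 in chosen barcodes.

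Class II genes were lower in hCD33M. Of 8 measured against control, 4 were lower and none higher, with a median ratio of -0.87. H2-Aa differed by -1.56 (interval -1.70 to -1.42), Cd74 by -1.65 (-1.75 to -1.55) and H2-Eb1 by -1.59 (-1.75 to -1.42). In microglial-poor barcodes the ratios were -0.80, -1.0 and -0.88, and in other cells -0.88, -0.96 and -0.81. In hCD33m against hCD33M H2-Aa, H2-Ab1, H2-Eb1 and Cd74 were higher, with H2-Eb1 at 1.32 (1.17 to 1.47) and Cd74 at 1.29 (1.2 to 1.39). There the microglial-poor ratios were 0.13 for H2-Eb1 and 0.35 for Cd74, and in barcodes with at least 4000 CPM of microglial genes they were 2.21 and 1.93. The ratios of hCD33M over control in those barcodes were -1.94 for H2-Aa, -1.97 for Cd74 and -2.08 for H2-Eb1, so both differences were larger there than in microglial-poor barcodes, which was not tested. Only 4 of 12 microglial-poor hCD33M barcodes were class II high, so few cells carry these values. With barcodes thinned to 2000 UMIs and then chosen by at least 3 marker UMIs, the H2-Aa ratio of hCD33m over hCD33M was -0.035.

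Among other genes counted between genotypes were chemokines and a growth factor. Ccl2 stood at 72.8 against 30.5 CPM in hCD33m and control (1.26, interval 0.55 to 2.03), with a ratio of 2.10 in other cells, and Ccl8 at 92.0 against 45.7 CPM (1.01, 0.42 to 1.64). In microglial-poor barcodes Ccl8 stood at 84.0 CPM in control, 52.6 in hCD33M and 411 in hCD33m. There 1 barcode held 37.5% of the hCD33m UMIs, and 16 of the 67 barcodes had any. Tmx4, a thioredoxin-related membrane protein, stood at 366 against 134 CPM (1.45, 1.12 to 1.80), with 1.06 in other cells. In microglial-poor barcodes its ratio was 0.35 (-0.85 to 1.60). Igf1 (-1.18, -1.65 to -0.72) and Ccr1 (-1.06, -1.49 to -0.64) were lower in hCD33m than in control, at -0.51 and -0.06 in other cells. Ccr1 was also lower in hCD33M (-1.25), where its ratio in microglial-poor barcodes was -1.23. With barcodes thinned to 2000 UMIs and then chosen by at least 3 marker UMIs, the Ccr1 ratios to control were 0.25 in hCD33m and 0.71 in hCD33M. Rbm3, an RNA-binding protein induced by cold, stood at 126 CPM in control, 68.7 in hCD33M and 198 in hCD33m. It was higher in hCD33m than in hCD33M by 1.52 (1.09 to 1.98), with 1.17 in other cells. Of 8 genes of the interferon-stimulated list, 1, Oasl2 (-1.05, -1.78 to -0.33), was lower in hCD33m than in control and none was higher. In hCD33M against control 1 of 8, Ifit3 (-2.41, -3.73 to -1.29), was lower and none was higher. Rtp4 (-1.72), which interferon also induces and which is not in that list, was lower too. They had 8 and 15 UMIs in hCD33M, their ratios in other cells were -0.10 and -0.03, and in microglial-poor barcodes Ifit3 was at -0.52 (-6.24 to 3.12). Whether these ratios differ between chosen barcodes and other cells was not tested.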

How the data were processed

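Single cells sorted from mouse brain were profiled as 10x Chromium 3′ v3.1 libraries, 1 per genotype and 2 pooled mice each. The deposited matrices hold raw UMI counts per gene and barcode, which the authors made with Cell Ranger 3.0.0 on mm10 (annotation release not given in the sources used here), keeping barcodes with more than 200 genes and, per the study, genes found in at least 3 cells, so a gene without a row was taken as 0. No doublet caller was run. Samples were grouped by the genotype label.

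Barcodes were chosen by the marker rule among those within the gene and mitochondrial limits. UMIs were summed per class and library and scaled to CPM. Ratios carry exact conditional binomial 95% intervals, CPM exact Poisson intervals and shares Clopper-Pearson intervals. A gene was measured at 20 CPM or more in either class, or 50 CPM between genotypes. With 1 library per genotype no test was possible, and edgeR (4.0.16) served only for TMM scaling. Thinning drew 2000 UMIs per barcode without replacement. The microglial-poor limit of 2000 CPM was planned, and the 4000 limit and the other limits tried for microglial genes and class II were chosen after seeing the data. The calculation of ratios and intervals was tested on simulated data. Python 3.11.15, numpy 2.4.6, scipy 1.17.1 and R 4.3.3 were used.

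The members and gene lists were chosen with earlier results of these data known. Named genes were the rule markers, Pf4, genes the study names, the 15 highest and 15 lowest ratios, up to 5 members of each list and the 8 highest and lowest counted genes of each genotype comparison where no barcode held over 25% of the UMIs. Other genes in the text were named after their values were seen. Alternatives changed the marker limit (3 or 10 UMIs, or 3 of the 5 markers), the fold, the minimum level, the mitochondrial limit, the scaling, the depth and the barcodes kept, and left out each library.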

Additional observations from a re-analysis of the deposited data

Results flagged for a closer look

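Barcodes beyond the gene or mitochondrial limits were not used in any comparison, but some met the marker rule, 10 in hCD33M and 9 in hCD33m against 3 in control. Of these 22 barcodes, 20 were over the gene limit and 17 had Pf4, with medians of 87522 UMIs and 7279 CPM of microglial genes. Over the gene limit there were 8 barcodes in control, 36 in hCD33M and 22 in hCD33m in all. Whether they held more than 1 cell was not tested.

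Ccl4 and Psmb7 differed between hCD33m and control in opposite directions in chosen barcodes and in other cells. Ccl4, a chemokine, was at 38.4 CPM in hCD33m and 100.5 in control among chosen barcodes (-1.39 on the log2 scale), and at 101 and 47.6 CPM in other cells (1.09). In chosen barcodes 1 control barcode held 68.2% of that library's Ccl4 UMIs. Psmb7, a proteasome subunit, was at 65.6 and 32.0 CPM in chosen barcodes (1.04) and at 62.2 and 66.3 CPM in other cells (-0.09). These differences between the classes were not tested.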

How the results depend on the processing

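Each result was recomputed under other settings, in the order control, hCD33M, hCD33m for shares. Counts with the mean of each barcode's CPM used the fold and minimum level alone, without the counting interval. The chosen share was 1.36%, 1.23% and 1.83% with 3 marker UMIs, 0.662%, 0.631% and 1.15% with 10 marker UMIs, 0.509%, 0.508% and 0.906% with 3 of the 5 markers, 0.374%, 0.210% and 0.544% with microglial-poor barcodes only, and 0.875%, 0.765% and 1.11% after thinning (to 2000 UMIs, then chosen by at least 3 marker UMIs). The shares after thinning are of barcodes with at least 2000 UMIs, and the others are of all barcodes within the limits. hCD33m was highest under each, with the smallest ratio to control after thinning. Intervals under these settings are given only for microglial-poor barcodes, where those of control and hCD33m overlapped. The count of genes higher than in other cells, 150, became 237 with 3 markers, 542 in microglial-poor barcodes, 468 after thinning, 236 at a fold of 1.5, 238 with the minimum level halved, 285 with the mean of each barcode's CPM, and 148 to 172 without 1 library. The 8 lower genes became 22 with 10 UMIs, 33 with 3 markers, 1081 in microglial-poor barcodes, 481 after thinning, 79 at a fold of 1.5, 27 with the level halved, 103 with mean CPM, and 10 to 17 without 1 library (13 without hCD33M, 17 without hCD33m).

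Genes counted in hCD33m against control, 43, became 25 with 3 UMIs, 81 with 10, 143 with 3 markers, 210 in microglial-poor barcodes, 168 after thinning, 244 at a fold of 1.5, 144 with the level halved and 112 with mean CPM. In hCD33M against control, 61 became 34, 130, 186, 197, 138, 342, 192 and 184 in the same order. In hCD33m against hCD33M, 27 became 46 with 10 UMIs, 110 with 3 markers, 176 in microglial-poor barcodes, 162 after thinning, 200 at a fold of 1.5, 119 with the level halved and 92 with mean CPM. Sets with fewer barcodes rest on fewer UMIs, and the number of genes measured under each setting is not given, so these counts are not shares. TMM scaling gave 40, 58 and 28. The microglial-poor share, 34.4%, was 25.1% at a limit of 1000 CPM and 40.0% at 3000.

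Some single ratios changed sign. Ccr2 over other cells was -0.40 with 3 markers. For hCD33m over control, Ccl4 was 1.53 with 3 markers, 3.62 in microglial-poor barcodes, 1.97 after thinning and 0.17 with mean CPM, and Ccr1 was 0.25 after thinning. In hCD33M against control, Ccl4 was 1.06 in microglial-poor barcodes and 0.26 after thinning, Ccr1 0.71 after thinning, Dusp1 -0.26 in microglial-poor barcodes, and Ier3 0.64 with 3 markers and 2.38 in microglial-poor barcodes. In hCD33m against hCD33M, Ccl3 was -0.25, Mlxip 0.33 and Zdhhc14 0.21 in microglial-poor barcodes, and H2-Aa was -0.035 after thinning. The cause was not tested. No paired analysis was possible because no test was made, since each genotype has 1 library and the choice of barcodes set the comparison with other cells. The few chosen barcodes limit the precision of low genes.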
